A study of Rattus norvegicus with 8 samples.

Results

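Krüppel-like factors (Klf) were followed in the Achilles tendon of the rat through 10 genes chosen by symbol, Klf2, Klf4, Klf5, Klf6, Klf7, Klf9, Klf10, Klf11, Klf13 and Klf15, among the 15590 genes with a value. RNA-seq had been run on 4 libraries of naïve controls (NC), from rats that kept their normal activity, and on 4 libraries from rats killed straight after 1 h of uphill running on a treadmill (0 h p.r., post-running). All rats were male, wild type, of the SD strain and aged between 8 and 10 weeks, and the right tendon was used. The treatment also includes the means used to keep the rats on the treadmill, which were blown air and weak electric shocks. The labels number the libraries of each group from 1 to 4 without stating that each came from a rat of its own, so the p-values measure the spread between these libraries. By the methods of the treadmill experiment its control rats were killed together with a group that had rested for 12 h after the run, and not with the 0 h p.r. rats, while the labels say only that both groups were killed immediately. Running and time of day therefore cannot be told apart, also for the clock and glucocorticoid genes given beside the Klf genes.

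Krüppel-like factors are transcription factors that bind GC-rich and CACCC sequences through zinc fingers at the C-terminal end, and they differ mainly in the domains before these fingers. Klf2, Klf4, Klf5, Klf6 and Klf7 act largely as activators. Klf9, Klf10, Klf11 and Klf13, like Klf16, carry a short helix that recruits the corepressor Sin3a, and Klf15 regulates the use of amino acids, glucose and lipids. Several members are quickly induced by blood flow, serum, Tgf-beta or glucocorticoids, and Klf2 and Klf4 are best known for the response of endothelium to shear stress.

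The members can be shown by the DNA before their start sites, since some of them carry sequences that Klf factors themselves or stimulus-induced factors are known to bind. Such a sequence, taken from RefSeq (build GRCr8), was available here for 7 of the 10 members, Klf4, Klf5, Klf6, Klf7, Klf9, Klf11 and Klf15. The 250 bases before the annotated start were searched on both strands. Below, the windows of 3 members are printed, 5′ to 3′ along the gene: Klf11 with its GC boxes in capitals (the motif GGGCGG), Klf15 with its E-box in capitals (CACGTG, bound by clock and Myc family factors), and Klf6 with its CArG box in capitals (the site of serum response factor). The Klf11 window lies at chr6:47014198-47014447 on the plus strand, that of Klf15 at chr4:124522765-124523014 on the plus strand and that of Klf6 at chr17:69458479-69458728 on the minus strand.
Klf11: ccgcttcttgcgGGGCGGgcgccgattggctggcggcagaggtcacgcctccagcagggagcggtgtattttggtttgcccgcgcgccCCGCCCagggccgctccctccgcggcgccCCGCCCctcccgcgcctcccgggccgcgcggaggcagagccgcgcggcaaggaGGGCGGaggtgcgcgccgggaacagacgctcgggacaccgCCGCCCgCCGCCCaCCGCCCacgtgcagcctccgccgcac
Klf15: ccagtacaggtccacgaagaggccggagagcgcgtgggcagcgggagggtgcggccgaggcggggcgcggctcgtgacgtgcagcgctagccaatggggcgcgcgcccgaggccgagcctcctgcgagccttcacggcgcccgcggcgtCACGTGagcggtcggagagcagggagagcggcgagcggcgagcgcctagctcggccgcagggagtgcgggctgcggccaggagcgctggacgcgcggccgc
Klf6: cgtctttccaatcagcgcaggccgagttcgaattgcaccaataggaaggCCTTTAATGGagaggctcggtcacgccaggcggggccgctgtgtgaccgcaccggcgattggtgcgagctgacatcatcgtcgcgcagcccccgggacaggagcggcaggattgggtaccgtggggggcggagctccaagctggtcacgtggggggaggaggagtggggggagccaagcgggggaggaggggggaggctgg

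The Klf11 window held 7 GC boxes and had a GC content of 79.2%, against a median of 51.2% over the 33469 RefSeq windows of the same length, of which 30.5% held at least 1 GC box. Klf6 and Klf7 held 1 GC box each. The E-box was found in Klf11, Klf15 and Klf6, 1 time each, and in 5.59% of all windows. In Klf11 it shares its first base with the GC box nearest to the start, and in Klf15 it overlaps the short cyclic AMP response site TGACG on the minus strand. The CArG box of Klf6 was the only one among the 7 windows searched and occurs in 1.5% of all windows. The short site TGACG was present 2 times in Klf15 and 1 time in Klf5 and in Klf9 (18.2% of all windows), and the CACCC box in Klf5, Klf7, Klf9 and Klf15 (49.2%). The window of Klf4 held the TATA box TATAAA on its minus strand 2 times (12.9% of all windows on either strand) and none of the other motifs. Whether the annotated start of Klf4 is its main start site could not be checked here, so this window may not be its promoter. The full cyclic AMP site TGACGTCA (1.59%), the short glucocorticoid receptor site TGTTCT (17.5%) and the NF-kB site (6.33%) were in none of the 7 windows. These matches describe letters before a start site taken from the annotation, which was not checked against the reads, and no binding was measured.

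Expression is given as FPKM, fragments per kilobase of gene model scaled by a factor for each library. Within a library the levels of different genes can therefore be set side by side. This factor was not the depth alone, since it was not proportional to the read totals given below. Whole reads were recovered from the steps of these values, and the members rested on between 38 reads (Klf13 in NC replicate 2) and 21114 reads (Klf4 in 0 h p.r. replicate 4) per library. The libraries held between 11350560 and 17897056 recovered reads in the listed genes. NC replicate 2 was the shallowest and stood apart in the share of FPKM from mitochondrial genes, 31.1% against 16.3% to 21.9% in the other 7.

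In tendon at rest the 10 genes spanned a wide range, and Klf2 and Klf4 stood at its top. The NC order was Klf2 (178 ± 30.4 FPKM, SD, n = 4), Klf4 (131 ± 35.0), Klf9 (67.5 ± 8.36), Klf6 (32.9 ± 4.44), Klf10 (25.4 ± 2.29), Klf13 (13.0 ± 4.56), Klf15 (11.4 ± 3.57), Klf11 (9.95 ± 0.613), Klf7 (7.29 ± 1.59) and Klf5 (3.61 ± 1.03). The ranges over the NC libraries overlapped for the neighbours Klf2 and Klf4, Klf13 and Klf15, and Klf15 and Klf11, and the other neighbours were separated in all 4 libraries. Among the tested genes, 97.3% lay below the NC mean of Klf2 and 28.0% below that of Klf5, so even the lowest member was well inside the expressed range. Klf13 was counted over a gene model of 602 bases and Klf2 over 1056, against 2366 to 3782 for the other members. The order of the members, and the size of a ratio between them, depends on these gene models.

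After running the order changed at 3 places. Klf4 (352 ± 129 FPKM) stood above Klf2 (298 ± 87.9) in 4 of 4 libraries, though in replicate 3 they were nearly level (185.4 and 184.6). Klf10 (45.1 ± 9.97) stood above Klf6 (40.2 ± 5.11) in 3 of 4, and Klf7 (8.34 ± 2.28) above Klf11 (6.31 ± 1.35) in 3 of 4. The ranges of each of these pairs overlapped, as did those of Klf15 (10.9 ± 1.82) and Klf7. Klf9 (66.9 ± 12.2) kept the third place, Klf13 (17.4 ± 1.83) lay between Klf6 and Klf15, and Klf5 (3.73 ± 1.16) was again the lowest.

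**Figure D1:**
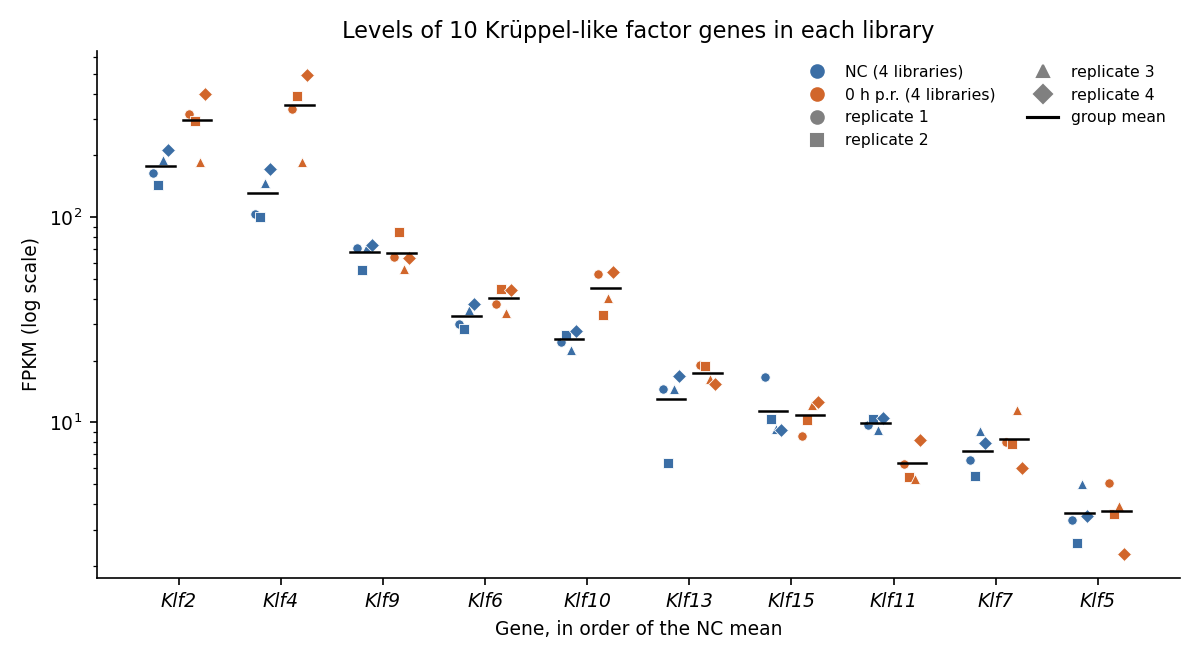
FPKM of the 10 Krüppel-like factor genes in each library on a log axis, ordered by the NC mean, with NC in blue, 0 h p.r. in orange, a symbol for each replicate number and a black line for the group mean. The groups are separated for Klf4 and Klf10, which were higher after running, and for Klf11, which was lower, and 0 h p.r. replicate 3 is the lowest orange point for Klf2 and Klf4.

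The comparison between the groups asked which members differ right after the run. In limma, 1 of the 10 members, Klf4, passed both thresholds of the study, an adjusted p under 0.05 and a fold of at least 2, where 2.70% of the 13863 tested genes did (1.80% higher and 0.894% lower after running). With the adjusted p alone, 3 members passed, Klf4 and Klf10 upward and Klf11 downward, against 5.72% of all tested genes (3.49% upward and 2.23% downward). The groups did not overlap for these same 3 members, and for 15.6% of the tested genes (8.15% higher and 7.47% lower). All 10 members passed the filter on low values. At an unadjusted p under 0.05, Klf2 joined these 3, making 4 of 10 beside 22.6% of all tested genes. The log2 fold change was positive for 7 members and negative for 3, where Klf5 turned negative with the libraries scaled to equal totals of non-mitochondrial FPKM. The median was 0.23, beside -0.00142 over all tested genes, and the median size of the change was 0.38, beside 0.22. With that scaling the limma adjusted p of Klf4, Klf10 and Klf11 rose to 0.0949, 0.0763 and 0.0965, and with voom on the recovered reads to 0.0759, 0.0586 and 0.0514. Their log2 fold changes were then 1.29, 0.71 and -0.71 with the scaling and 1.29, 0.72 and -0.76 with voom, against 1.38, 0.79 and -0.63.

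**Figure D2:**
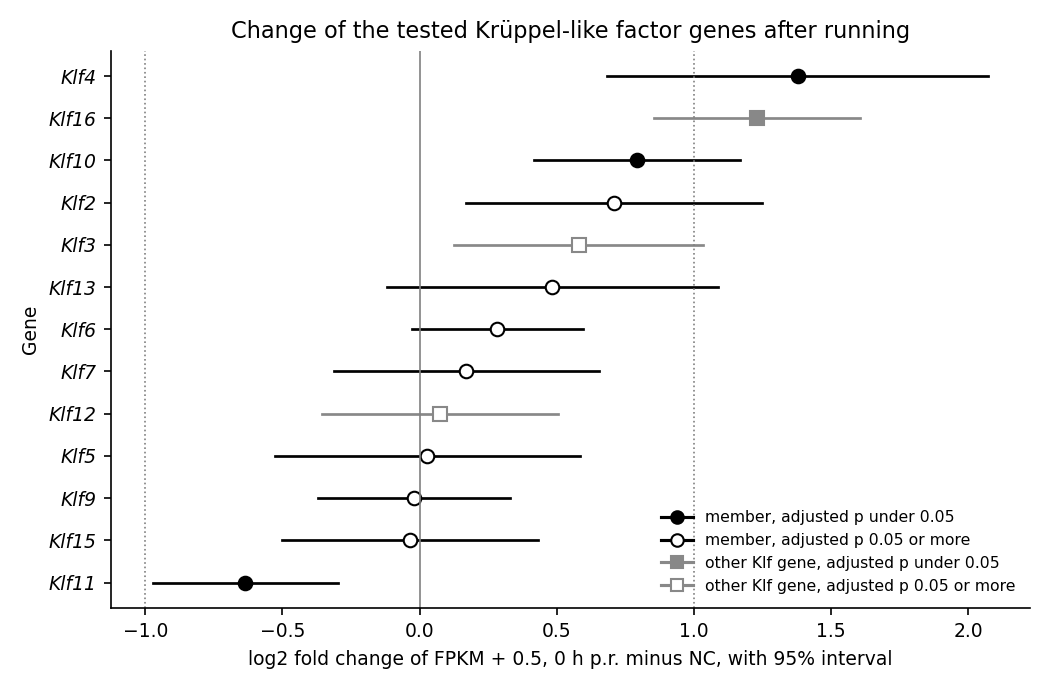
log2 fold change of FPKM + 0.5, 0 h p.r. minus NC, with its 95% interval from limma, for the 10 members (black circles) and 3 other Klf genes (grey squares), filled where the adjusted p is under 0.05 and with dotted lines at a fold of 2. Klf4 and Klf16 lie beyond the upper dotted line, Klf10 and Klf11 lie inside the lines with intervals that leave out 0, and the intervals of Klf5, Klf6, Klf7, Klf9, Klf13 and Klf15 contain 0.

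Klf4 (ENSRNOG00000016299), an activator and repressor known from endothelium, epithelium and pluripotent cells, was higher after running. It measured 104, 100.01, 147 and 172 FPKM in NC replicates 1 to 4 and 337, 391, 185 and 494 in 0 h p.r. replicates 1 to 4. All 4 libraries after running lay above all 4 controls, but 0 h p.r. replicate 3 was close to the highest control while the other 3 were well clear of it. The log2 fold change was 1.38 (SE 0.31), a fold of 2.60 with a 95% interval from 1.61 to 4.21, and the limma adjusted p was 0.0368. Over the 70 possible divisions into groups of 4, an exact permutation test gave Klf4, and likewise Klf10 and Klf11, a p of 0.0286, the smallest it can give. Any gene whose groups do not overlap gets this unadjusted p, so it adds nothing to that separation. When single libraries were dropped in turn, the adjusted p stayed under 0.05 without NC replicate 4 (0.0469), 0 h p.r. replicate 3 (0.0159) or 0 h p.r. replicate 4 (0.0476). It was 0.106, 0.0734 and 0.0716 without NC replicates 1, 2 and 3, and 0.0820 and 0.113 without 0 h p.r. replicates 1 and 2, with the log2 fold change between 1.19 and 1.66 in these 8 fits.

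Klf2 (ENSRNOG00000014205), the flow-induced factor of quiescent endothelium and a regulator of T cell traffic, is the nearest relative of Klf4 in this set. Its values were 164, 143, 190 and 213 FPKM in NC and 317, 293, 185 and 398 in 0 h p.r. Replicates 1, 2 and 4 after running exceeded every control, and replicate 3 lay inside the NC range. The difference, 0.71 on the log2 scale (SE 0.24, a fold of 1.63 with an interval from 1.12 to 2.38), did not pass (limma adjusted p 0.118). Among the 8 fits with a single library dropped, the limma adjusted p was lowest without 0 h p.r. replicate 3 (0.0583) and highest without NC replicate 1 (0.252).

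Klf2 and Klf4 together made up most of the family's summed level. Their share of the summed FPKM of the 10 members was 60.4% to 67.4% in NC and 67.4% to 81.2% in 0 h p.r. The sum itself was 444, 389, 513 and 572 FPKM in NC and 857, 892, 549 and 1098 in 0 h p.r. Of the 4 sums after running, 3 exceeded all controls, and that of replicate 3 lay below the highest control. Without Klf2 and Klf4 the sum of the other 8 members was 145 to 187 in NC and 179 to 208 in 0 h p.r. The ratio of Klf4 to Klf2 within a library, looked at after their values had been seen and given as a description, was 0.631 to 0.809 in NC and 1.00 to 1.34 in 0 h p.r., where the lowest was again replicate 3.

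**Figure D3:**
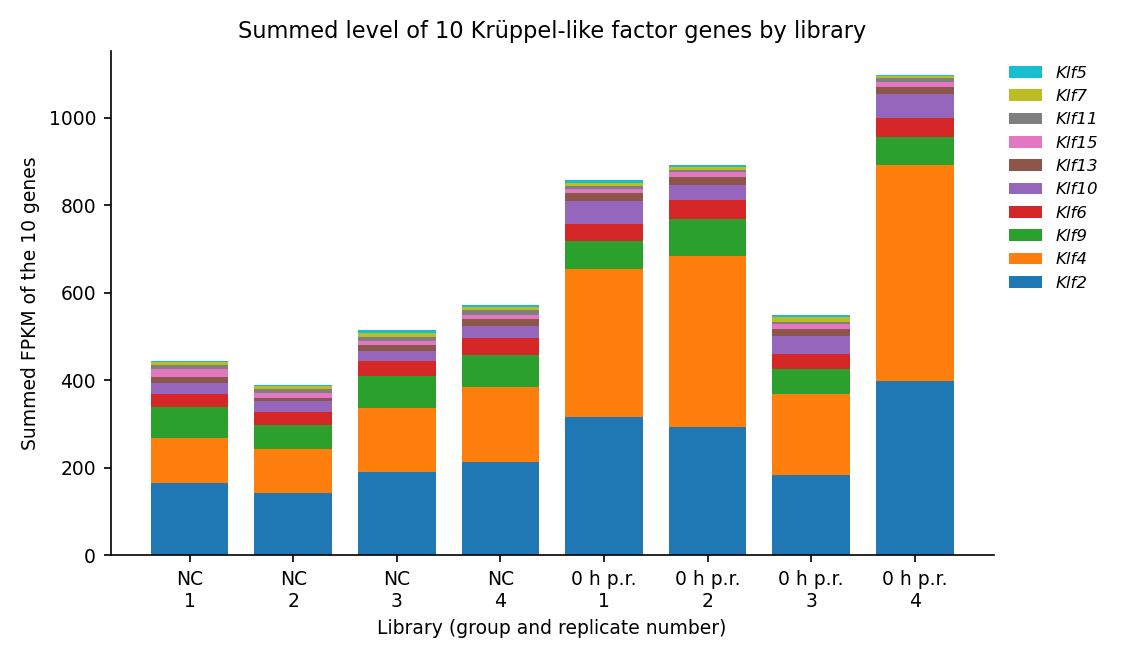
Summed FPKM of the 10 members in each library, stacked by gene with the axis from 0. Klf2 (blue) and Klf4 (orange) fill 60.4% to 81.2% of each bar, and the bar of 0 h p.r. replicate 3 (549) is about as high as that of NC replicate 4 (572).

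Genes known to act around Klf2 and Klf4 were examined by the same test. None of the 7 tested genes of the Erk5 and Mef2 axis, the kinases and factors known to induce both genes, passed both thresholds (median log2 fold change 0.20, 1 gene at an unadjusted p under 0.05). Mef2a, a transcription factor of this axis, had the largest value, 0.62 (limma adjusted p 0.0552), and Map2k5, the kinase that activates Erk5, the smallest, -0.25 (0.275). None of 4 endothelial genes regulated by Klf2 and Klf4 passed either (median 0.36, 2 at an unadjusted p under 0.05), from Nos3, the endothelial nitric oxide synthase (0.69, limma adjusted p 0.183), to Edn1, the vasoconstrictor endothelin (-0.36, 0.284). The 7 tested endothelial markers summed to 465 to 555 FPKM in NC and 447 to 548 in 0 h p.r., none was at 0 in all libraries, and none passed both thresholds, although Egfl7 passed on the adjusted p alone (0.75, 0.0270, lost in 5 of the 8 drops, and at 0.0950 with 0 h p.r. replicate 2 dropped). The part of endothelial cells in the Klf2 and Klf4 values was not tested. In bulk tissue, more cells of a type and more RNA per cell cannot be told apart.

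The likeness of other genes to Klf4 over the 8 libraries was measured by the root-mean-square difference of log2(FPKM + 0.5), each gene centred on its own mean. Among 13862 genes the nearest was Dusp1, a phosphatase that inactivates MAP kinases, at 0.130. Dusp1 measured 101, 104, 119 and 153 FPKM in NC and 358, 399, 197 and 466 in 0 h p.r. Like Klf4, it was lowest after running in replicate 3 and highest in replicate 4. Col9a3, a collagen chain of cartilage (0.193), and Ezr, the membrane linker ezrin (0.244), came next. Of the family, Klf2 stood at rank 28 (0.368), Klf16 at rank 35 (0.381) and Klf10 at rank 234 (0.524). These values describe 8 shared libraries in 2 groups and carry no test.

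**Figure D4:**
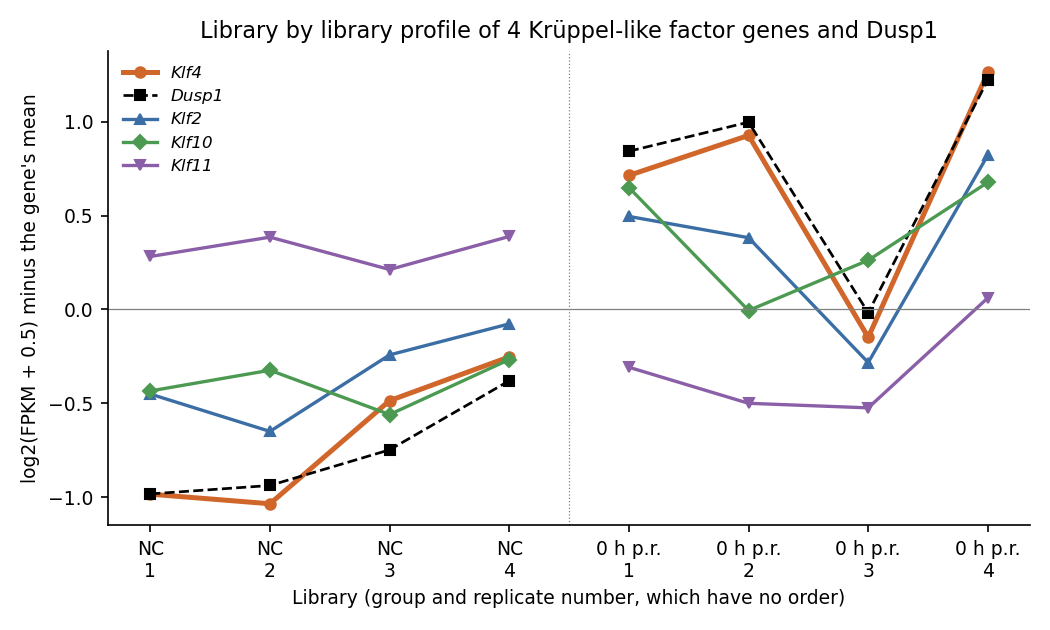
log2(FPKM + 0.5) of Klf4, Dusp1, Klf2, Klf10 and Klf11 in each library, minus the mean of the gene over the 8 libraries, where the replicate numbers on the horizontal axis have no order and the lines only join a gene's points. Klf4 and Dusp1 nearly coincide, Klf2 shares their low value in 0 h p.r. replicate 3, and Klf11 lies above 0 in all NC libraries and below it in 3 of the 4 libraries after running.

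The remaining activators differed by less than the test could call. Klf6 (ENSRNOG00000016885), an injury-induced factor, measured 30.1, 28.4, 35.4 and 37.9 FPKM in NC and 37.9, 44.4, 34.0 and 44.3 in 0 h p.r. Replicates 2 and 4 after running were clear of the controls, replicate 1 was level with the highest control, and the fold was 1.22 with an interval from 0.980 to 1.51 (limma adjusted p 0.266). Klf5 (ENSRNOG00000008785), which drives proliferation in epithelium and smooth muscle, ranged from 2.58 to 5.04 FPKM in NC and from 2.29 to 5.10 in 0 h p.r., with a fold of 1.02 (0.694 to 1.501, adjusted p 0.964). Klf7 (ENSRNOG00000046242), known from neurons and fat cell precursors, ranged from 5.48 to 9.11 in NC and from 5.97 to 11.5 in 0 h p.r., with a fold of 1.12 (0.805 to 1.57, adjusted p 0.704). The groups overlapped for all 3 of these genes, and a fold of 2 lies outside each of the 3 intervals.

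Among the members that recruit Sin3a, the 2 Tgf-beta-inducible paralogs moved in opposite directions. Klf10 (ENSRNOG00000006118, also called Tieg1), which is known to affect tendon cells and bone, measured 24.7, 26.7, 22.6 and 27.8 FPKM in NC and 52.9, 33.4, 40.3 and 53.9 in 0 h p.r. The NC values were close together, and all 4 values after running lay above them, replicate 2 being the nearest. Klf10 rose by a fold of 1.73 (interval 1.33 to 2.25), or 0.79 ± 0.17 (SE) on the log2 scale, at a limma adjusted p of 0.0309, short of the 2-fold threshold. Leaving out a library gave an adjusted p under 0.05 without NC replicate 2 (0.0492), 0 h p.r. replicate 2 (0.0258) or 0 h p.r. replicate 4 (0.0412). The adjusted p was 0.0925, 0.0780 and 0.0542 without NC replicates 1, 3 and 4, and 0.0744 and 0.0685 without 0 h p.r. replicates 1 and 3, with a log2 fold change of 0.70 to 0.93 throughout.

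Klf11 (ENSRNOG00000054259, also called Tieg2), a repressor related to Klf10, was the only member that passed downward. It measured 9.68, 10.4, 9.20 and 10.5 FPKM in NC and 6.26, 5.42, 5.32 and 8.24 in 0 h p.r. The controls were within a narrow band, every library after running was below it, and 0 h p.r. replicate 4 came closest. The fold was 0.644 (interval 0.509 to 0.814), or -0.63 ± 0.15 (SE) on the log2 scale, at a limma adjusted p of 0.0438. This call rests on most of the libraries. It held without 0 h p.r. replicate 4 (0.0105) and was lost without any other library, at 0.110, 0.0699, 0.0809 and 0.0979 without NC replicates 1 to 4 and at 0.0888, 0.131 and 0.119 without 0 h p.r. replicates 1 to 3, with a log2 fold change of -0.76 to -0.57. The ratio of Klf10 to Klf11 within a library, again described after the values had been seen, was 2.45 to 2.65 in NC and 6.16 to 8.44 in 0 h p.r. The Klf11 window printed above, dense in GC boxes, held the most such boxes among the 7 windows searched, and none of Klf2, Klf10 or Klf13 was used here.

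Klf9 (ENSRNOG00000014215), which is induced by glucocorticoids and thyroid hormone, measured 70.4, 55.1, 71.6 and 73.1 FPKM in NC and 64.3, 84.3, 55.8 and 63.3 in 0 h p.r. One library after running (replicate 2) was above all controls and the rest lay within their range. The fold was 0.986 with an interval from 0.774 to 1.26 (limma adjusted p 0.958). Klf13 (ENSRNOG00000015822), a factor of lymphocytes and heart, measured 14.5, 6.37, 14.5 and 16.7 FPKM in NC and 19.1, 18.9, 16.3 and 15.4 in 0 h p.r. Its wide spread in NC came from replicate 2, the library with the high mitochondrial share, where Klf13 had 38 reads. The fold was 1.40 (0.921 to 2.13, adjusted p 0.329), and the log2 fold change of 0.48 became 0.19 without NC replicate 2 (adjusted p 0.343).

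Klf16 (ENSRNOG00000033694), a further gene of the group that recruits Sin3a, was not among the 10 members but belonged to the list of other Klf genes. It measured 7.57, 4.79, 7.28 and 7.67 FPKM in NC and 18.8, 16.8, 14.2 and 16.3 in 0 h p.r. Each library after running was above every control by a wide margin. Klf16 rose by a fold of 2.35 (interval 1.81 to 3.04), or 1.23 ± 0.17 (SE) on the log2 scale, at a limma adjusted p of 0.00571, and it passed on the adjusted p without any single library (0.00503 to 0.0258). Of the 8 genes of that list, 6 had a value and 3 were tested. Klf3, a repressor that binds Ctbp, went from 19.1 ± 5.40 to 28.3 ± 4.26 FPKM without passing (log2 fold change 0.58, adjusted p 0.128), and Klf12, of the same repressor group, from 2.56 ± 0.672 to 2.69 ± 0.421 (0.07, 0.874). Klf1, Klf8 and Klf14 were under the filter with 2 to 42 reads per library.

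Partners and competitors of these factors were read next. None of the 7 corepressor genes (Sin3a, Sin3b, Hdac1, Hdac2, Hdac3, Ctbp1 and Ctbp2) passed both thresholds, with 1 at an unadjusted p under 0.05, a median log2 fold change of 0.14 and single values from -0.19 (Ctbp2, limma adjusted p 0.317) to 0.27 (Sin3b, 0.261). The Sp factors compete with Klf factors for GC boxes, and none of the 4 tested passed (1 at an unadjusted p under 0.05, median 0.07, from -0.06 for Sp1 with an adjusted p of 0.881 to 0.41 for Sp4 with 0.216). Of 9 genes of the Tgf-beta pathway, the known inducer of Klf10 and Klf11, 1 passed both thresholds and 5 had an unadjusted p under 0.05. Smad3, which carries the Tgf-beta signal to the nucleus, rose from 13.1 ± 2.22 to 28.3 ± 2.31 FPKM (a log2 change of 1.09, limma adjusted p 0.00427, 0.00590 to 0.0219 with single libraries dropped). The list's median was 0.23, and its smallest value was that of the receptor Tgfbr2 (-0.34, 0.207).

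Klf15 (ENSRNOG00000017808), the metabolic regulator of the family and a glucocorticoid target, measured 16.7, 10.4, 9.34 and 9.22 FPKM in NC and 8.61, 10.3, 12.2 and 12.6 in 0 h p.r. NC replicate 1 was the highest library of all and 0 h p.r. replicate 1 the lowest. The fold was 0.975 (0.706 to 1.35, limma adjusted p 0.946). None of 4 tested metabolic targets of Klf15 passed (2 at an unadjusted p under 0.05), and all 4 values were negative, with a median log2 fold change of -0.36, from -0.64 for the alanine aminotransferase Gpt (adjusted p 0.165) to -0.17 for the glucose transporter Slc2a4 (0.819). Of 8 tested glucocorticoid targets, 3 passed both thresholds upward (median 0.71, 5 at an unadjusted p under 0.05). These were Dusp1 (1.52, adjusted p 0.0156, lost for 2 of the 8 libraries dropped, up to 0.0597), Mt2A (1.503, 0.0440, lost in 6, up to 0.130) and Errfi1 (1.32, 0.0278, lost in 5, up to 0.0947), each with its highest p without 0 h p.r. replicate 2, while Fkbp5 had the smallest value (-0.45, 0.379). Tsc22d3 (-0.43, limma adjusted p 0.262) and Zbtb16 (-0.40, 0.517) were negative too, and 5 of the 8 values were positive. Klf9 and Klf15, both counted among glucocorticoid-induced genes, had log2 fold changes of -0.02 and -0.04 in the same libraries.

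Klf4, Klf5, Klf9 and Klf15 also take part in fat cell formation, and regulators of that process were examined beside them. Of the 6 tested, 2 passed both thresholds and 5 had an unadjusted p under 0.05. Cebpb and Cebpd, the early C/EBP factors, rose from 55.7 ± 5.02 to 166 ± 10.7 FPKM (1.57 on the log2 scale, limma adjusted p 0.000299) and from 68.5 ± 11.6 to 241 ± 56.1 (1.79, 0.00205), each also without any single library (up to 0.00306 and 0.0105). Cebpa, the late factor, had the smallest value (-1.53, 0.0538), and the list's median was 0.37. Markers of fat cells moved with the groups: 5 of 8 passed both thresholds downward (8 at an unadjusted p under 0.05), the summed level of the 8 was 2503 to 4635 FPKM in NC and 844 to 1804 in 0 h p.r., none was at 0 in all libraries, and the values ran from -2.41 for Cidec (0.0270) to -0.91 for Lipe, which did not pass (0.0520). Cidec lost its call for 4 of the 8 libraries dropped (0.0785 at most, with 0 h p.r. replicate 2 dropped). Lep (-2.37), Retn (-2.14), Adipoq (-1.69) and Plin4 (-1.34) passed too. Lep and Adipoq lost their calls for 6 of the 8 libraries dropped (up to 0.0857 and 0.105), Plin4 for 5 (up to 0.108) and Retn for none. The part of fat cells in the values of the Klf genes was not tested.

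Klf9 and Klf10 are tied to the circadian clock, and many Klf genes respond early to stimuli, so both lists are given beside them. Of 16 clock genes, 3 passed both thresholds upward (median 0.32, 6 at an unadjusted p under 0.05), Ciart (2.28, limma adjusted p 0.0415, lost for 7 of the 8 libraries dropped, at most 0.119 with 0 h p.r. replicate 2 dropped), Bhlhe40 (2.25, 0.000947, lost in none) and Bhlhe41 (1.01, 0.0229, lost for 5, at most 0.0681 with 0 h p.r. replicate 3 dropped), and the smallest value was that of Hlf (-0.40, 0.607). Of 17 immediate-early genes, 13 passed upward, all 17 had an unadjusted p under 0.05 and the median was 2.26, from Nr4a3 (3.61, 0.00114) to Jun, which did not pass (0.52, 0.118). With single libraries dropped, the call was lost for 8 of 8 with Jund (adjusted p 0.0517 to 0.118), for 6 with Egr3 (up to 0.111) and for 1 with Nr4a2 (0.0501 without 0 h p.r. replicate 2), and for none with the other 10. Klf4, at 1.38, lay below the median of that list.

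Markers of other cells were read for the same libraries. The tendon was recognisable by its 10 tenocyte markers, summing to 8501 to 14130 FPKM in NC and 11500 to 23400 in 0 h p.r., of which none passed (1 at an unadjusted p under 0.05). Skeletal muscle markers ranged most, from 3322 to 5320 in NC and from 794 (replicate 4) to 26550 (replicate 1) in 0 h p.r., with none of 6 past both thresholds (1 at an unadjusted p under 0.05). Bone markers summed to 10.3 to 48.6 in NC and 47.4 to 161 in 0 h p.r. (0 of 3 past both thresholds, 2 at an unadjusted p under 0.05) and cartilage markers to 1165 to 1637 and 1696 to 4473 (0 of 4, and 3). Of smooth muscle (5 tested), macrophage (5), erythroid (2) and epidermal (2) markers none passed, with 1, 1, 0 and 0 at an unadjusted p under 0.05. Their summed levels in NC and 0 h p.r. were 1539 to 2232 and 1786 to 2766, 49.05 to 86.3 and 33.8 to 74.2, 157 to 600.1 and 135 to 501, and 2.57 to 3.09 and 2.44 to 2.55 FPKM. Of 2 neutrophil markers, 1 rose and 1 fell, S100a9 and Mpo, both with means under 2 FPKM and calls lost for 4 and 2 of the 8 libraries dropped (at most 0.0713 with 0 h p.r. replicate 2 dropped and 0.0513 with replicate 3). No marker with a value was at 0 in all libraries. The part of these cells in the Klf values was not tested.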

How the data were processed

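The 10 genes and the gene lists were chosen with earlier results of these data known. According to the methods of the study, polyadenylated RNA was made into stranded libraries, and the reads were aligned with HISAT2 2.1.0 to Rnor_6.0 (strandness RF) and counted per gene with featureCounts 1.6.3. The deposited table held 1 FPKM value per gene and library, made by the authors from those counts and the gene lengths. Its other columns, the log2 fold changes, p-values and adjusted p-values of the authors' own DESeq2 1.30.1 comparison, were not used.

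Groups and replicate numbers came from the sample titles. The 13863 of 15590 genes that reached 0.5 FPKM in 4 or more of the 8 libraries were compared on log2(FPKM + 0.5), which understates the change of low genes, with limma 3.58.1 in R 4.3.3 (lmFit, eBayes with a trend, no covariate, two-sided, Benjamini-Hochberg over all tested genes). A fold and its 95% interval are on this scale. Exact permutation tests over the 70 assignments of the libraries were two-sided (Python 3.11.15, scipy 1.17.1, numpy 2.4.6). As reads, the smallest whole numbers proportional to the FPKM values were taken. Such numbers were found for 15590 of 15590 genes (100% at a tolerance of 0.02 reads), which is not a measure of accuracy. A gene whose reads share a common factor in all libraries would be understated. These reads were used for depth and for voom, which called 321 genes. Precision limits from reads cover counting error only. Tested on simulated reads of 13926 genes, the fit reached an adjusted p under 0.05 for 34% of 100 genes changed 2-fold and for 100% of 97 changed 4-fold, and 5.07% of its calls were unchanged genes.

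All members were named, and of each pathway list the largest and smallest value and up to 4 genes past both thresholds (for immediate-early genes the largest and smallest, for markers mainly those that passed). Promoter windows were taken from RefSeq, GRCr8. Alternatives were pseudocounts of 0.1 and 1, the filter left off or set to a mean of 2 FPKM, 3 other scalings, a replicate block, array weights, no trend, no fold threshold, treat with a fold of 1.5, only protein-coding genes, voom, and each library left out.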

Additional observations from a re-analysis of the deposited data

Results flagged for a closer look

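The 20 groups of 4 libraries of the 10 members were searched for a library far from the rest of its group by Dixon's test (the gap to the nearest library over the group's range), where chance gives about 1 in 20. Klf9 in NC replicate 2 was far below the rest, at 55.1 FPKM against 70.4 to 73.1 (0.851 of the range), and this was also the library with 31.1% mitochondrial FPKM. Klf15 in NC replicate 1 was far above the rest, at 16.7 FPKM against 9.22 to 10.4 (0.838 of the range).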

How the results depend on the processing

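Klf4 passed both thresholds in the fit described in the report (1 member of 10), and 0 members did with quantile normalization, equal totals without mitochondrial genes, the replicate block, treat or voom, against 3 by the adjusted p alone. With an adjusted p under 0.05 there were 3 members, 2 with quantile normalization or no filter, and 0 with equal totals, the replicate block, treat or voom, where limma gave 3, 4, 1 and 4 members at an unadjusted p under 0.05. The direction of Klf4, Klf10, Klf11 and Klf16 was kept in every setting run. Leaving out each library gave 0 to 1 members past both thresholds and 0 to 3 by the adjusted p. Klf5 turned to -0.0533 with equal totals, -0.0514 with array weights and -0.0830 with voom. Without single libraries, values near 0 crossed it, Klf5 (-0.121 to 0.214), Klf9 (-0.137 to 0.0602) and Klf15 (-0.121 to 0.155), and the cause was not tested. Over all tested genes, 374 passed (250 higher, 124 lower), and the same numbers passed with median-ratio scaling, which left the values nearly as they were. This became 243 with equal totals, 212 with the replicate block, 60 with treat and 793 by the adjusted p alone, and voom called 171 higher and 150 lower. It was 195 to 516 without single libraries, with 195 and 201 without 0 h p.r. replicates 2 and 3 and 217 without NC replicate 1.

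The replicate numbers did not pair the libraries (correlations of same-numbered libraries -0.14, -0.07, 0.07 and 0.0056), and no library correlated best with its own number in the other group. Klf13 in NC replicate 2 rested on 38 reads, and a member that did not pass the test is not shown to be unchanged.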
